A study of Mus musculus with 6 samples.

Results

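RNA-seq profiles of P1 and P2, sorted stromal fractions of the mouse omentum that differ in aldehyde dehydrogenase (ALDH) activity, were compared. The comparison used 2 of the 6 libraries of the study (P1 to P6), 1 library per fraction, all from the omentum of WT C57BL/6 mice. As read from the gating plot of the study, cells of both fractions lacked the leukocyte antigen CD45 and carried CD140a and CD105, and they were separated by the ALDEFLUOR substrate into ALDH high (P1) and ALDH intermediate (P2) cells. P3 was the CD140a+CD105+ fraction with low ALDH activity. P4 and P5 were CD140a+CD105- fractions with intermediate and low activity, and P6 was CD140a low and ALDH positive. The age, sex and number of the mice, and any pooling, were not given in the sources used here. With 1 library per fraction no difference could be tested against the spread between replicates, so no p-value is given. In bulk samples such as these, fewer cells of a type and less RNA per cell cannot be told apart.

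The omentum is a sheet of visceral fat that holds milky spots, lymphoid clusters that collect cells and particles from the peritoneal cavity. Their stroma includes fibroblastic reticular cells (FRCs), which form a scaffold of collagen fibers and secrete the chemokines that position lymphocytes. Retinal dehydrogenases, such as ALDH1A2, oxidize retinaldehyde to retinoic acid, a ligand of the nuclear receptors RARα, RARβ and RARγ. ALDEFLUOR reports the combined activity of ALDH enzymes in living cells, and the fractions were therefore defined by enzyme activity and surface antigens, not by any mRNA.

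Expression was read as FPKM, fragments counted per length of transcript and per number of mapped reads. Depth, estimated from the spacing of low FPKM values, was 53200000 reads in P1 and 61500000 in P2, and 36800000 to 61600000 reads over the 6 libraries. Ratios are followed by 95% Clopper-Pearson intervals computed from the estimated reads, which cover counting error only and not the variation between mice or sorts. A gene was compared when it was listed above 0 in both libraries and its mean over P1 and P2 reached 1 FPKM, and it was called higher or lower at a ratio of at least 2.

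The genes of the gates and the markers were examined first. *Eng*, which encodes CD105, had 52.4 FPKM in P1 against 52.2 in P2, with P3 at 42.6, P4 at 0.359, P5 at 0.231 and P6 at 0.728. CD140a is the product of *Pdgfra*, whose level was 152 FPKM in P1 and 154 in P2. Both were alike in P1 and P2, and *Eng* separated P1 to P3 from P4 to P6. *Ptprc*, which encodes CD45, was at 0.602 FPKM in P1 and 0.751 in P2, below the minimum.

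*Aldh1a2* had 469 FPKM in P1 against 78.8 in P2, with P3 at 134, P4 at 285, P5 at 145 and P6 at 209, and P1 was 5.96-fold (95% interval 5.83 to 6.09) above P2. P2 was the lowest of the 6 libraries for this gene, although its gate required more ALDH activity than that of P3. The other retinaldehyde dehydrogenases were not higher in P1. *Aldh1a1* had 41.4 FPKM in P1 and 63.4 in P2, and *Aldh1a3* had 19.5 FPKM in P1 and 38.2 in P2. Of 14 aldehyde dehydrogenase genes compared, *Aldh1a2* was the one at least 2-fold higher, and none was lower, although *Aldh1a3* passed 2-fold lower after scaling to a common sum. Beside 0.814% higher and 3.67% lower among all genes, nothing is read from these counts about the family. *Phex*, an endopeptidase of phosphate balance, had 18.4 FPKM in P1 against 2.63 in P2, with P3 at 3.92, P4 at 5.71, P5 at 0.68 and P6 at 0.192, a ratio of 6.98-fold (95% interval 6.53 to 7.48). *Ptx3*, a pattern recognition molecule that crosslinks hyaluronan matrix, had 151 FPKM in P1 against 42.4 in P2, with P3 at 41, P4 at 50.4, P5 at 8.5 and P6 at 2.15, a ratio of 3.58-fold (95% interval 3.46 to 3.7). *Matn2*, a matrix adaptor protein, had the opposite pattern with 29.1 FPKM in P1 against 114 in P2, with P3 at 80.3, P4 at 16.2, P5 at 20.1 and P6 at 4.65, and P1 was 3.9-fold (95% interval 3.78 to 4.02) below P2.

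Genes of retinoid handling and of retinoid receptors were not called in either direction, in 15 of 15 compared. Another 10 members of the list were not compared. Beside 0.814% higher and 3.67% lower among all genes, nothing is read from the count. The median log2 ratio of the 15 genes was −0.047. *Adh1*, which oxidizes retinol, had 169 FPKM in P1 and 138 in P2, and *Rdh10*, the retinol dehydrogenase that supplies retinaldehyde, had 33.9 FPKM in P1 and 31.2 in P2. Transcript levels of the enzymes before and after the ALDH step were thus within 2-fold, and *Cyp26b1*, which degrades retinoic acid, had 3.69 FPKM in P1 and 4.01 in P2. *Rarb* and *Cyp26a1* are textbook targets of retinoic acid receptors. Their promoter windows, from RefSeq (GRCm38.p6), were searched on both strands for a DR5 retinoic acid response element, read as 2 hexamers in direct repeat with 5 bases between them, each hexamer being AGGTCA or its close variant AGTTCA, or else GGGTCA or its close variant GGTTCA. Such an element is present in 32 of 32851 windows (0.0974%) that run from 250 bases before to 50 after a gene start. The matches are shown with 15 bases on either side and the element in capitals, because these genes carry the known binding motif of the pathway that the sorted enzyme feeds.
Rarb (chr14:16575498-16575544, minus strand): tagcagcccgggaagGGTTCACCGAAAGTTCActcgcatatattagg
Cyp26a1 (chr19:37697761-37697807, plus strand): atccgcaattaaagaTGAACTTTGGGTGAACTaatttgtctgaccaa
The element of *Rarb* lies 53 to 37 bases upstream of the annotated start, and that of *Cyp26a1* 32 to 16 bases upstream and on the opposite strand. A match describes letters and not binding. *Rarb* had 3.18 FPKM in P1 against 3.29 in P2, with P3 at 2.78, P4 at 3.39, P5 at 2.21 and P6 at 6.6, a P1-to-P2 ratio of 0.968-fold (95% interval 0.854 to 1.1) whose interval includes 1. *Cyp26a1* was listed at 0 in P1 and at 0.010 FPKM in P2 and was not compared.

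Across the comparison, 11544 of 23352 gene symbols met the conditions. Most were close to equal, with 89.9% within 1.5-fold, a median log2 ratio of P1 to P2 of −0.048 and an SD of 0.65. At the 2-fold threshold, 94 genes (0.814% of those compared) were higher in P1 and 424 (3.67%) were lower. The excess of lower genes remained under every scaling of the libraries that was tried, but its size varied. Quantile normalization gave 134 higher and 337 lower genes, so that lower genes made up 71.5% of calls instead of 81.9%. Small RNAs, which are shorter than the sequenced fragments, made up 8 of the higher and 12 of the lower genes. Another 22 of the lower genes belonged to a list of pancreatic acinar genes. The remaining 86 higher and 390 lower genes are described here. Of those, 83 and 387 had an estimate of reads, and the interval lay wholly past 2-fold for 55 higher and 293 lower genes. The lower genes were also the more divergent group, with 110 at 4-fold or more against 8 of the higher genes, and a median difference of 2.87-fold against 2.40-fold.

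**Figure D1:**
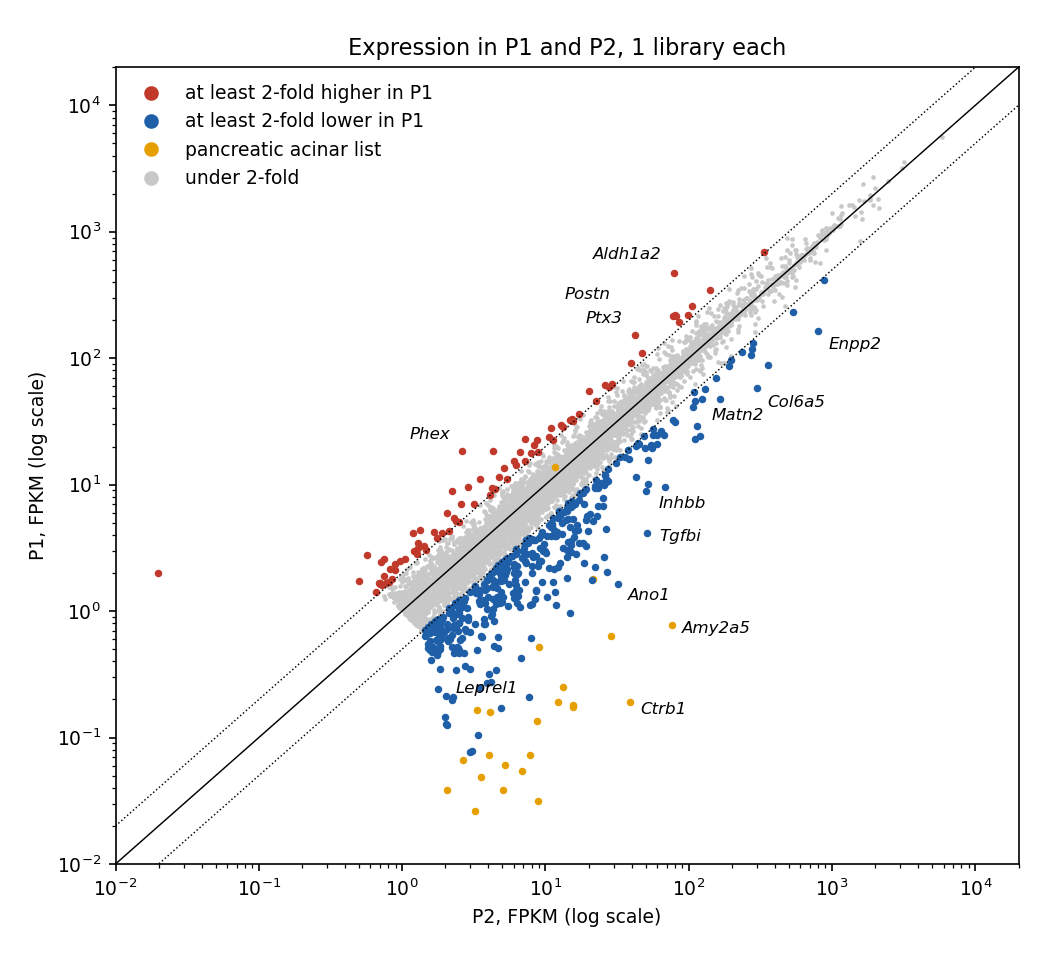
FPKM in P2 (x axis, log scale) and in P1 (y axis, log scale) for the genes compared, without small RNAs and without genes under 0.01 FPKM in either library. Points are genes, the solid line marks equal levels and the dotted lines mark 2-fold. Genes lower in P1 (blue) outnumber those higher in P1 (red) and lie farther from the line, and most acinar genes (orange) lie farther still.

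Genes listed at exactly 0 in P1 or P2 were not compared. There were 1407 of these, and 26 had a median of at least 1 FPKM over the other 5 libraries, including 18 small RNAs. *Col3a1*, an abundant fibrillar collagen, had 3389.6 FPKM in P1 and was listed at 0 in P2. *Ebf2* was likewise listed at 0 in P2. These values were not read as differences.

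Transcripts of other cell types were summed over marker lists, since some moved with the comparison. The acinar list, with enzymes such as amylase and trypsin that fibroblasts do not make, summed to 19.6 FPKM in P1 against 322 in P2, while P3 held 43.9, P4 held 1703, P5 held 201 and P6 held 2463. Its most abundant member, *Amy2a5*, had 0.782 FPKM in P1 and 75.8 in P2. P1 held the least and P6 the most of this signal, and 20 of the 47 genes were listed at 0 in P1 against 2 in P2. A lymphoid list summed to 36 FPKM in P1 and 135 in P2, most of it from *Igj*, the joining chain of secreted antibodies, which had 24.3 FPKM in P1 against 119 in P2, with P3 at 4.44, P4 at 14, P5 at 7.74 and P6 at 7.85. P1 and P2 were the highest libraries for *Igj*. They were also the highest for the B cell marker *Cd79a*, at 1.78 FPKM in P1 and 3.21 in P2. Of the 6 lymphoid genes compared, 5 lay below 0 on the log2 scale. T cell markers such as *Cd3e* were at 0 FPKM in P1 and 0.0393 in P2. Myeloid markers summed to 37.4 FPKM in P1 and 66.3 in P2. All 12 that were compared lay below 0 on the log2 scale, with a median of −0.75, against −0.048 over all genes compared. Endothelial, mesothelial, adipocyte and glial lists differed by less than 1.5-fold in their sums. The endothelial sum was mostly the gate gene *Eng* and *Tek*, and the adipocyte sum mostly *Fabp4*. These sums therefore say little about the other members. The other 3 endothelial genes compared, *Ecscr*, *Lyve1* and *Plvap*, were lower in P1 by less than 2-fold. Islet hormones were at 0 in P1 and P2 except for *Sst* at 0.141 FPKM in P1 and 0.122 in P2. Leaving out all 10 lists of other cell types, an alternative added after the values were seen, left 91 higher and 393 lower genes. The part of these cells in other differences was not tested.

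**Figure D2:**
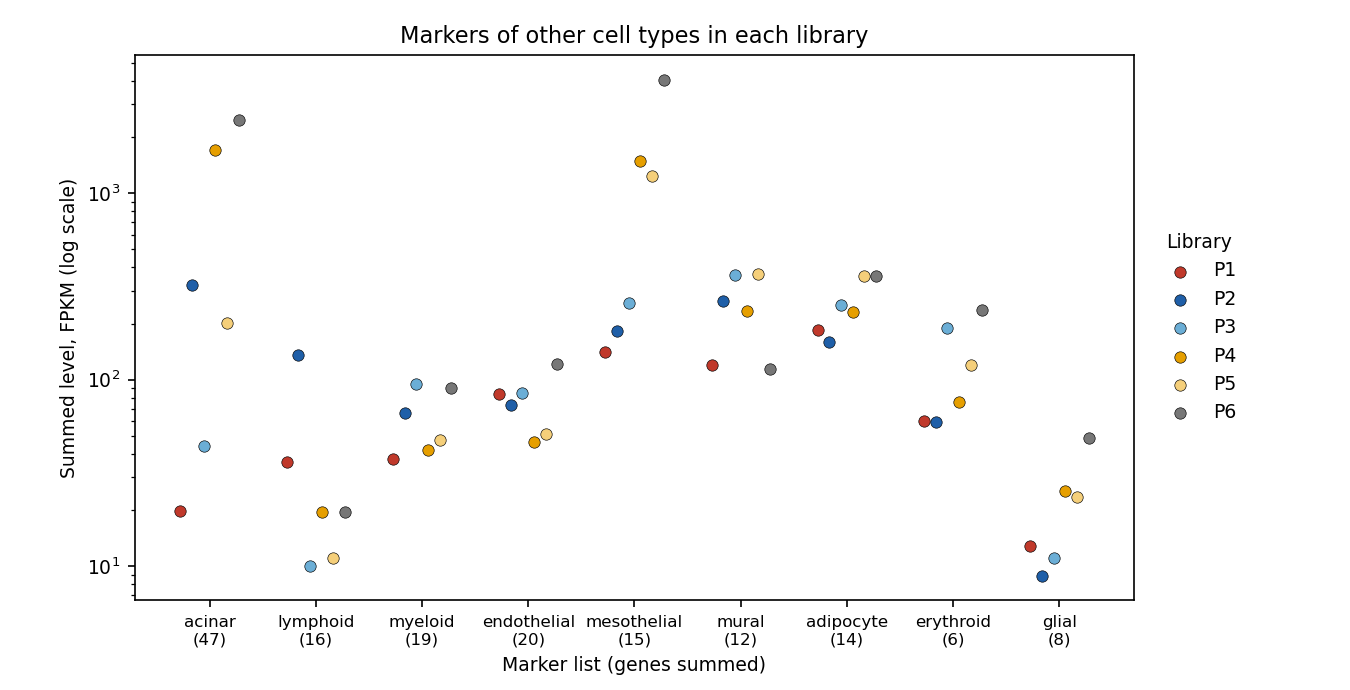
Summed FPKM (y axis, log scale) of marker genes for 9 other cell types (x axis, number of genes in parentheses) in each library, 1 point per library. The acinar sum runs from 19.6 FPKM in P1 to 2463 in P6, and the lymphoid sum is highest in P2.

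The level of the 390 lower genes in the other fractions fell into more than 1 pattern. In 180 of them P1 was at or below 50% of each of P2, P3, P4 and P5. The condition on P2 was met by selection, and the other conditions reuse the same P1 value. The share of all genes with this pattern was not computed, so nothing is read from the count. In 130 (33.3%) the level in P3 was at least 2 times that in both P4 and P5, a pattern seen in 3.17% of all genes compared. Of the 86 higher genes, 2 had this pattern, *Apold1* and *Hbb-b1*. The pattern sets no condition on P1 against P4 and P5, and P1 exceeded both for some of the 130 genes. *Mfap4*, for example, had 11.8 FPKM in P1, 12.3 in P3, 1.69 in P4 and 1.95 in P5. P3 was at or above P2 in 225 of the 390 genes and at or below P1 in 7. Both counts reuse the P1 or P2 values of the selection. Their shares over all genes were not computed, so nothing is read from them.

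The 30 named lower genes, ranked by a difference that gives weight to abundant transcripts, ranged from 4.84-fold to 36.5-fold lower in P1, each with an interval past 2-fold. They were picked for large decreases, so the sizes and intervals are no separate check. In 15 of them P3 was at least 2 times both P4 and P5, beside 3.17% of all genes compared. In 16 of them P1 was at or below 50% of each of P2 to P5. The P2 condition was again met by selection and the share over all genes was not computed, so nothing is read from this count.

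**Figure D3:**
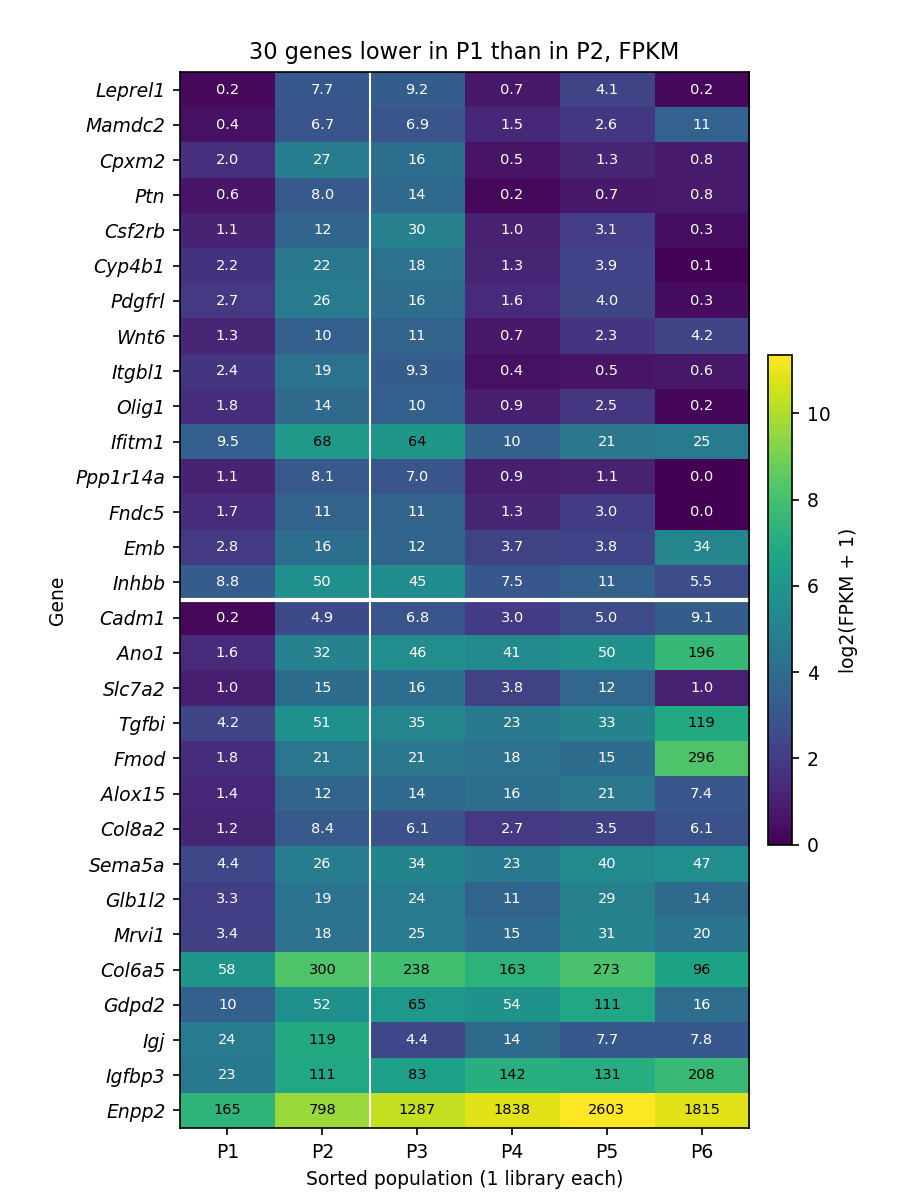
FPKM (numbers) and log2(FPKM + 1) (color) of 30 genes lower in P1 than in P2 (rows) in the 6 libraries (columns). Above the white horizontal line are 15 genes with P3 at least 2 times both P4 and P5, which are high in P2 and P3, and below it are the other 15.

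Secreted ligands and their inhibitors are described first. In the TGF-β and BMP pathway, of 38 genes compared, 8 were lower (3.67% of all genes) and 1 was higher (0.814% of all genes), although the count of lower members was 6 with quantile normalization and the median log2 ratio was near 0, at −0.082. *Inhbb*, at chr1:119415463-119422248 (GRCm38.p6), encodes the βB subunit of activins B and AB and of inhibin B. It had 8.83 FPKM in P1 against 50.1 in P2, with P3 at 45.4, P4 at 7.51, P5 at 10.5 and P6 at 5.46. P2 and P3 were alike and the other libraries were low, and P1 was 5.67-fold (95% interval 5.41 to 5.96) below P2. *Bmp4*, a BMP ligand, had 2.45 FPKM in P1 and 9.05 in P2 (3.69-fold lower in P1, 95% interval 3.18 to 4.31). *Chrdl1*, a BMP antagonist, had 4.32 FPKM in P1 and 16.2 in P2 (3.74-fold lower, 95% interval 3.47 to 4.04). Both a BMP ligand and a BMP antagonist were lower. The higher member was *Bmp6*, with 9.25 FPKM in P1 and 4.45 in P2, and *Id3*, a transcriptional target of BMP signaling, had 754 FPKM in P1 and 769 in P2.

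In the Wnt pathway, 4 of 30 genes were lower and 1 was higher, beside 3.67% and 0.814% of all genes. *Wnt6* had 1.3 FPKM in P1 against 10.2 in P2, with P3 at 11.1, P4 at 0.722, P5 at 2.33 and P6 at 4.18, with P1 7.85-fold (95% interval 6.53 to 9.46) below P2, and was high in P2 and P3. *Wnt4* had 5.91 FPKM in P1 against 20.6 in P2, with P3 at 41.8, P4 at 115, P5 at 172 and P6 at 50.6, with P1 3.48-fold (95% interval 3.27 to 3.71) below P2, and was highest in the CD105- fractions. *Nkd2*, an inhibitor of Wnt signaling, had 4.99 FPKM in P1 and 13.1 in P2, and *Nkd1* had 8.63 FPKM in P1 and 17.4 in P2. The higher gene, *Sfrp2*, a secreted Wnt modulator, had 23.6 FPKM in P1 and 10.6 in P2. *Sfrp1*, the most abundant member, had 78.9 FPKM in P1 and 74.9 in P2 and did not differ by 2-fold.

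Genes of the insulin-like growth factor (IGF) system were lower in 5 of 13 cases (3 with quantile normalization, and 3.67% of all genes as deposited), with a median log2 ratio of −0.73. *Pappa2* and *Pappa* encode proteases that cleave IGF-binding proteins and free IGF. *Pappa2* had 0.0781 FPKM in P1 against 3.06 in P2, with P3 at 2.18, P4 at 0.114, P5 at 0.575 and P6 at 0.161, and *Pappa* had 2.66 FPKM in P1 against 14.3 in P2, with P3 at 12.8, P4 at 1.96, P5 at 3.44 and P6 at 2.25. Both were high in P2 and P3, and P1 was 39.2-fold (95% interval 28.3 to 54.9) and 5.37-fold (95% interval 5.08 to 5.67) below P2, respectively. *Stc2*, an inhibitor of these proteases, was also lower, at 1.46 FPKM in P1 and 3.5 in P2. *Igfbp3*, an IGF-binding protein, had 22.8 FPKM in P1 against 111 in P2, with P3 at 83, P4 at 142, P5 at 131 and P6 at 208, with P1 4.88-fold (95% interval 4.67 to 5.11) below P2 and lowest of the 6 libraries. *Igfals* completed the lower members with 0.774 FPKM in P1 and 1.69 in P2. The most abundant members, *Igfbp4* with 1838 FPKM in P1 and 1829.8 in P2 and *Igfbp7* with 1545 FPKM in P1 and 2126 in P2, did not differ by 2-fold.

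Other growth factor genes with large differences were found in both patterns. *Ptn*, a heparin-binding growth factor, had 0.617 FPKM in P1 against 7.95 in P2, with P3 at 13.5, P4 at 0.169, P5 at 0.738 and P6 at 0.757, and was 12.9-fold (95% interval 9.94 to 16.9) lower in P1. *Fgf23*, the phosphate-regulating hormone, had 3.93 FPKM in P1 against 11.9 in P2, with P3 at 16.3, P4 at 1.9, P5 at 2.61 and P6 at 0.0335, with P1 3.02-fold (95% interval 2.67 to 3.41) below P2. *Phex*, whose loss is known to raise FGF23, differed in the opposite direction. *Fgfr4*, an FGF receptor, had 0.248 FPKM in P1 against 3.47 in P2, with P3 at 7.87, P4 at 6.15, P5 at 13.1 and P6 at 0.936, and was 14-fold (95% interval 10.3 to 19.8) lower in P1. Of the angiogenic ligands and receptors, *Angpt4*, a ligand of the TIE2 receptor, had 3.59 FPKM in P1 against 15 in P2, with P3 at 9.26, P4 at 0.937, P5 at 1.73 and P6 at 2.64, and was 4.18-fold (95% interval 3.75 to 4.66) lower in P1, whereas *Tek*, which encodes TIE2, had 22.7 FPKM in P1 and 8.76 in P2 and was 2.59-fold (95% interval 2.47 to 2.73) higher. *Tek* is also an endothelial marker, and *Pecam1*, a defining one, was at 0.518 FPKM in P1 and 0.37 in P2. *Nrp2*, a coreceptor of class 3 semaphorins and VEGF-C, had 5.22 FPKM in P1 and 19.1 in P2 (3.67-fold lower, 95% interval 3.48 to 3.87).

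In the extracellular matrix, of 26 collagen genes compared, 8 were lower (6 with quantile normalization), beside 3.67% of all genes. Of the 26, 14 lay below 0 and 12 above 0 on the log2 scale, with a median of −0.26. None was called higher as deposited, which is not read as a result because 0.814% of all genes were. After division by *Gapdh* or with the median of ratios, 1 was called higher. *Col6a5*, at chr9:105856070-105962463, encodes a chain of collagen VI, and had 57.6 FPKM in P1 against 300.2 in P2, with P3 at 238, P4 at 163, P5 at 273 and P6 at 95.6. P1 was the lowest of the 6 libraries and 5.21-fold (95% interval 5.15 to 5.28) below P2. *Col8a2*, a short-chain collagen, had 1.24 FPKM in P1 and 8.39 in P2 (6.79-fold lower, 95% interval 5.97 to 7.72). Of the network collagens of basement membranes, *Col4a6* had 2.16 FPKM in P1 and 11.5 in P2 and *Col4a4* had 0.801 FPKM in P1 and 2.49 in P2. In contrast, *Col1a1* had 1263 FPKM in P1 and 1618 in P2 and *Col1a2* had 1419.6 FPKM in P1 and 1593 in P2, both under 2-fold.

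*Fmod*, a small leucine-rich proteoglycan that binds collagen fibrils, had 1.77 FPKM in P1 against 21.2 in P2, with P3 at 21.3, P4 at 18.3, P5 at 14.9 and P6 at 296, and was 12-fold (95% interval 10.6 to 13.6) lower in P1, while *Dcn*, the most abundant of this family, had 5615 FPKM in P1 and 5871 in P2. *Tgfbi*, a TGF-β-induced matrix protein, had 4.17 FPKM in P1 against 51.2 in P2, with P3 at 34.5, P4 at 23.1, P5 at 32.6 and P6 at 119, and was 12.3-fold (95% interval 11.3 to 13.4) lower. P1 was the lowest library for both genes. *Mgp*, an inhibitor of calcification, had 88.2 FPKM in P1 against 355 in P2, with P3 at 273, P4 at 423, P5 at 415 and P6 at 792, and was 4.02-fold (95% interval 3.83 to 4.23) lower. Among matricellular proteins, 4 of 17 were lower (3.67% of all genes), *Matn2*, *Wisp2* with 4.24 FPKM in P1 and 12.1 in P2, *Spon1* with 47.6 FPKM in P1 and 125 in P2 and *Sparcl1* with 118 FPKM in P1 and 277 in P2, and *Postn* was higher with 216 FPKM in P1 and 77.8 in P2. Among laminin and integrin genes, *Lamc3* had 0.48 FPKM in P1 and 2.43 in P2 and *Itga3* had 1.15 FPKM in P1 and 4.85 in P2. The most abundant member, *Nid1*, had 564 FPKM in P1 and 369 in P2. Among elastic fiber genes, *Ltbp2* at 3.17 FPKM in P1 and 9.21 in P2, *Mfap4* at 11.8 FPKM in P1 and 26 in P2 and *Fbln1* at 111 FPKM in P1 and 236 in P2 were lower, and *Mfap5* at 444 FPKM in P1 and 244 in P2 was under 2-fold.

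**Figure D4:**
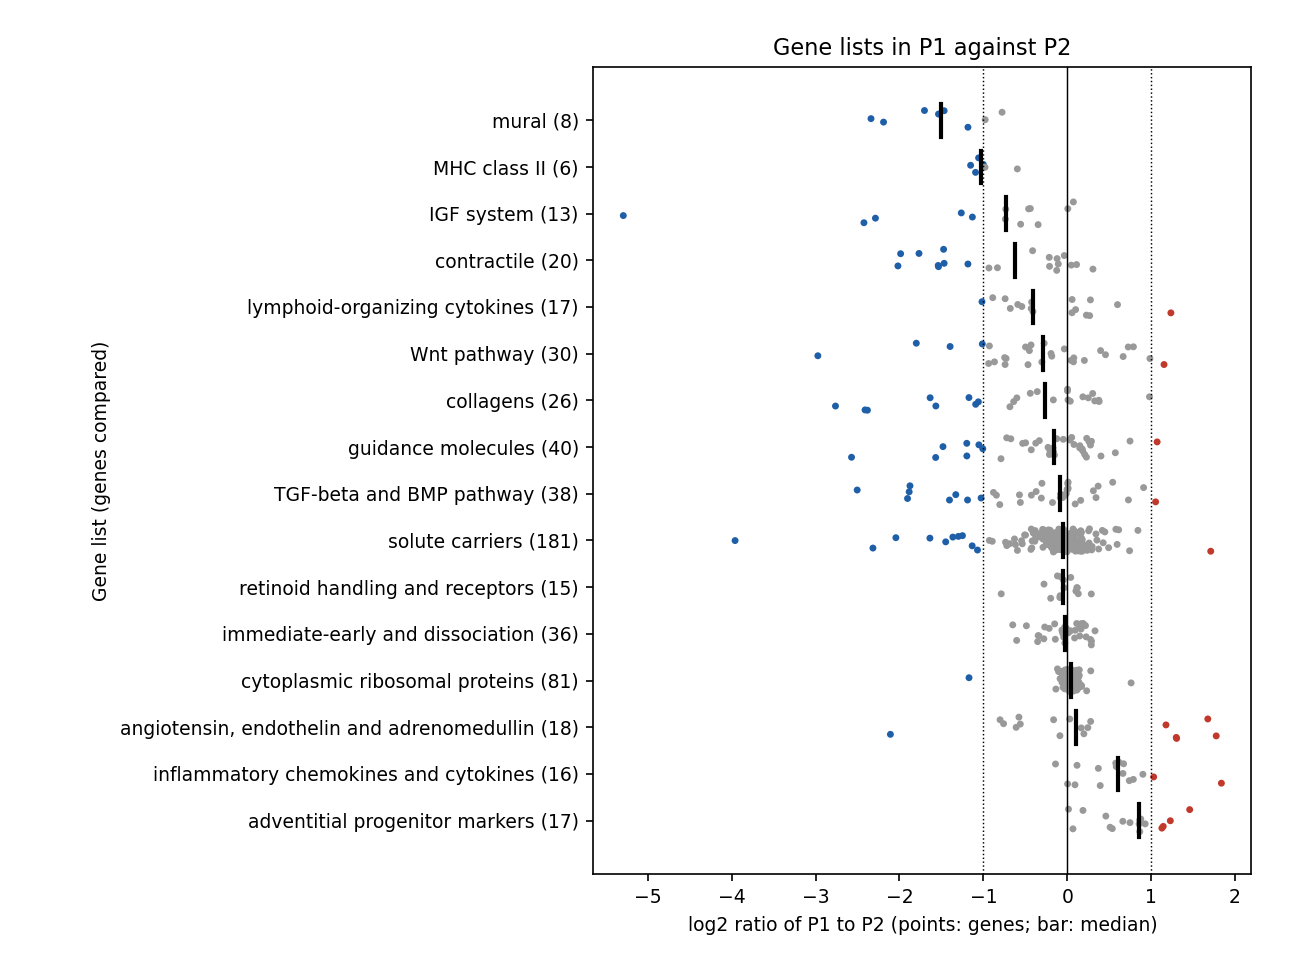
log2 ratio of P1 to P2 (x axis) for each gene compared (points) in 16 gene lists (y axis, number of genes in parentheses), with the median of each list as a bar and 2-fold as dotted lines. Points below −1 are blue and points above 1 are red. The mural median lies at −1.50, and that of adventitial progenitor markers at 0.86.

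Genes of the contractile apparatus were lower in 8 of 20 cases under each scaling tried, beside 3.67% of all genes as deposited, with a median log2 ratio of −0.62 as deposited. *Mylk*, the kinase that activates smooth muscle myosin, had 5.63 FPKM in P1 against 22.8 in P2, with P3 at 30.9, P4 at 5.23, P5 at 13.6 and P6 at 1.08, and was 4.05-fold (95% interval 3.82 to 4.3) lower in P1. *Synpo2*, an actin-bundling protein, had 1.28 FPKM in P1 and 5.08 in P2 and *Lmod1*, an actin nucleator of smooth muscle, had 0.615 FPKM in P1 and 2.09 in P2. *Acta2*, smooth muscle actin, had 0.655 FPKM in P1 and 1.9 in P2. Outside the list, *Ppp1r14a*, an inhibitor of myosin phosphatase, had 1.14 FPKM in P1 against 8.12 in P2, with P3 at 6.96, P4 at 0.933, P5 at 1.08 and P6 at 0, and was 7.14-fold (95% interval 5.18 to 10.4) lower, and *Mrvi1*, which links cGMP kinase to calcium release, had 3.42 FPKM in P1 against 18.4 in P2, with P3 at 24.8, P4 at 14.7, P5 at 31.5 and P6 at 19.7, and was 5.38-fold (95% interval 5.04 to 5.74) lower. *Des*, the intermediate filament desmin that marks the FRC network, had 57.2 FPKM in P1 against 130.0 in P2, with P3 at 198, P4 at 117, P5 at 191 and P6 at 37.1, and P1 was 2.27-fold (95% interval 2.22 to 2.33) below P2. *Vim*, the most abundant member of the list, had 1618 FPKM in P1 and 1308 in P2.

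The mural list shared some of these genes and was lower in 6 of 8 cases, beside 3.67% of all genes. *Kcnj8* and *Abcc9* encode the pore and the regulatory subunit of the vascular KATP channel. *Kcnj8* had 3.32 FPKM in P1 against 15.2 in P2, with P3 at 19.3, P4 at 18.4, P5 at 29.9 and P6 at 5.43, and *Abcc9* had 7.77 FPKM in P1 against 25.3 in P2, with P3 at 29.8, P4 at 8.65, P5 at 21.7 and P6 at 4.7, so that P1 was 4.56-fold (95% interval 4.1 to 5.1) and 3.25-fold (95% interval 3.12 to 3.4) lower than P2, respectively. The defining pericyte markers *Rgs5*, with 0.361 FPKM in P1 and 0.523 in P2, *Cspg4*, with 0.15 FPKM in P1 and 0.258 in P2, and *Mcam*, with 0.16 FPKM in P1 and 0.21 in P2, were near 0 in both libraries. The summed mural list was 119 FPKM in P1 and 263 in P2, most of it from *Des* and *Pdgfrb*.

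Of ion channels and transporters, *Ano1*, a calcium-activated chloride channel at chr7:144588549-144752026, had 1.64 FPKM in P1 against 32 in P2, with P3 at 46.2, P4 at 40.6, P5 at 50.3 and P6 at 196. P1 was 19.5-fold (95% interval 17.6 to 21.6) below P2 and lowest of all libraries. *Slc7a2*, a transporter of cationic amino acids, had 0.961 FPKM in P1 against 15 in P2, with P3 at 16.1, P4 at 3.78, P5 at 12.2 and P6 at 1.03, and was 15.6-fold (95% interval 13.8 to 17.6) lower in P1. Of 181 solute carrier genes, 10 were lower (7 with quantile normalization), among them *Slc7a5* with 1.1 FPKM in P1 and 5.46 in P2, a carrier of large neutral amino acids, and *Slc1a3* with 1.05 FPKM in P1 and 4.31 in P2, a glutamate carrier. The higher gene was *Slc6a13*, a GABA and taurine carrier, with 4.38 FPKM in P1 and 1.34 in P2. The share of lower carriers, 10 of 181, was set against 3.67% of all genes, and nothing is read from it.

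Among enzymes, *Enpp2*, at chr15:54838901-54952789, was the most abundant of the named lower genes. It encodes autotaxin, a secreted enzyme that makes lysophosphatidic acid and guides lymphocyte entry at high endothelial venules. It had 165 FPKM in P1 against 798 in P2, with P3 at 1287, P4 at 1838, P5 at 2603 and P6 at 1815, and P1 was 4.84-fold (95% interval 4.77 to 4.91) below P2. P1 and P2 were the lowest libraries. *Alox15*, a lipoxygenase of fatty acid mediators, had 1.43 FPKM in P1 against 11.6 in P2, with P3 at 13.8, P4 at 16.2, P5 at 21.3 and P6 at 7.4, and was 8.11-fold (95% interval 6.91 to 9.56) lower in P1. *Cyp4b1*, a cytochrome P450, had 2.21 FPKM in P1 against 22.1 in P2, with P3 at 18, P4 at 1.28, P5 at 3.88 and P6 at 0.0809, and was 9.997-fold (95% interval 8.65 to 11.6) lower, and was high in P2 and P3. *Cpxm2*, a catalytically inactive member of the carboxypeptidase family, had 2.02 FPKM in P1 against 26.7 in P2, with P3 at 16.3, P4 at 0.511, P5 at 1.33 and P6 at 0.785, and was 13.2-fold (95% interval 11.9 to 14.8) lower, with the same pattern. *Leprel1*, a prolyl 3-hydroxylase of collagen, had the largest ratio of the 30 genes, with 0.21 FPKM in P1 against 7.66 in P2, with P3 at 9.19, P4 at 0.675, P5 at 4.09 and P6 at 0.172, at 36.5-fold (95% interval 26.3 to 53.6). *Gdpd2*, a glycerophosphodiesterase, had 10.2 FPKM in P1 against 51.6 in P2, with P3 at 64.6, P4 at 54.2, P5 at 111 and P6 at 15.7, and was 5.06-fold (95% interval 4.77 to 5.38) lower. In the prostaglandin pathway, *Ptger3*, a receptor for prostaglandin E2, had 3.86 FPKM in P1 and 15.8 in P2 and was lower. *Pla2g2e*, a secreted phospholipase, had 22.6 FPKM in P1 and 11.3 in P2 and was 2.0-fold (95% interval 1.77 to 2.27) higher, which was under 2-fold after scaling to a common sum and after adding 0.1 FPKM. *Ptgs2*, the inducible cyclooxygenase, had 111 FPKM in P1 and 47.3 in P2 and was 2.34-fold (95% interval 2.29 to 2.39) higher.

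Surface and adhesion genes included *Csf2rb*, the shared β chain of the receptors for IL-3, IL-5 and GM-CSF, with 1.12 FPKM in P1 against 11.8 in P2, with P3 at 29.8, P4 at 1.03, P5 at 3.12 and P6 at 0.323. P1 was 10.6-fold (95% interval 9.35 to 12) below P2 and P3 was the highest library. *Cadm1*, a cell adhesion molecule, had 0.171 FPKM in P1 against 4.91 in P2, with P3 at 6.79, P4 at 3.03, P5 at 5.01 and P6 at 9.13, and was 28.7-fold (95% interval 17.4 to 54.4) lower. *Emb*, a glycoprotein that accompanies monocarboxylate transporters, had 2.84 FPKM in P1 and 16.4 in P2 (5.77-fold lower, 95% interval 5.2 to 6.41). *Itgbl1*, an integrin β-like protein, had 2.39 FPKM in P1 against 18.6 in P2, with P3 at 9.27, P4 at 0.443, P5 at 0.533 and P6 at 0.639, and *Pdgfrl*, a PDGF receptor-like protein, had 2.67 FPKM in P1 against 25.5 in P2, with P3 at 15.6, P4 at 1.56, P5 at 4.02 and P6 at 0.304. Both were high in P2 and P3, and P1 was 7.78-fold (95% interval 7.09 to 8.56) and 9.57-fold (95% interval 8.27 to 11.2) lower than P2, respectively. *Ifitm1*, an interferon-induced membrane protein, had 9.51 FPKM in P1 against 68.1 in P2, with P3 at 63.8, P4 at 10.3, P5 at 21.4 and P6 at 24.5, and was 7.16-fold (95% interval 6.31 to 8.16) lower. *Ifi44* was the other lower gene among 36 interferon-stimulated genes, with 1.3 FPKM in P1 and 4.57 in P2. This count is near the 3.67% of all genes and is not read as a result about the list, whose median log2 ratio was −0.17.

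Of 40 guidance molecules, 7 were lower, beside 3.67% of all genes, and this count was 3 with quantile normalization. *Sema5a*, a transmembrane semaphorin, had 4.45 FPKM in P1 against 26.5 in P2, with P3 at 33.6, P4 at 23, P5 at 40.4 and P6 at 47, and was 5.95-fold (95% interval 5.7 to 6.2) lower in P1, the lowest library. *Epha2*, an ephrin receptor, had 1.54 FPKM in P1 and 4.31 in P2, and *Sema3f* had 2.25 FPKM in P1 and 5.16 in P2. *Slit3*, the most abundant member, had 401 FPKM in P1 and 438 in P2. In the transcription factor families examined, *Tbx2*, a T-box repressor, had 0.534 FPKM in P1 against 4.35 in P2, with P3 at 4.21, P4 at 0.411, P5 at 1.07 and P6 at 0.45, and was 8.14-fold (95% interval 6.62 to 10.2) lower in P1, and *Foxs1*, a forkhead factor, had 1.6 FPKM in P1 against 6.23 in P2, with P3 at 9.39, P4 at 4.92, P5 at 9.96 and P6 at 1.44, and was 3.89-fold (95% interval 3.1 to 4.9) lower. *Olig1*, a basic helix-loop-helix factor known from oligodendrocytes, had 1.83 FPKM in P1 against 14.1 in P2, with P3 at 10.3, P4 at 0.935, P5 at 2.49 and P6 at 0.151, and was 7.7-fold (95% interval 6.64 to 9.0) lower. All of these factors were higher in P2 and P3 than in P1, while *Klf4*, the most abundant of the families, had 398 FPKM in P1 and 326 in P2.

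The other named lower genes were *Mamdc2*, an MAM-domain proteoglycan, with 0.429 FPKM in P1 and 6.75 in P2, *Glb1l2*, a β-galactosidase-like protein, with 3.26 FPKM in P1 and 19.2 in P2, and *Fndc5*, the precursor of irisin, with 1.69 FPKM in P1 and 11.4 in P2.

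Of 17 cytokines that organize lymphoid tissue, 1 was lower and 1 was higher in P1, with a median log2 ratio of −0.41. Beside 3.67% lower and 0.814% higher among all genes, nothing is read from these counts. *Il33*, an alarmin of stromal cells, had 54.2 FPKM in P1 against 109.7 in P2, with P3 at 116, P4 at 129.6, P5 at 169 and P6 at 79.4, and P1 was 2.02-fold (95% interval 1.97 to 2.08) below P2, a ratio that was under 2-fold after 3 of the 4 scalings. *Ccl19*, a ligand of CCR7 and a marker of FRCs, had 90.8 FPKM in P1 against 168 in P2, with P3 at 204, P4 at 39.8, P5 at 46 and P6 at 3.6. *Cxcl12* had 366 FPKM in P1 against 551 in P2, with P3 at 597, P4 at 144, P5 at 117 and P6 at 6.36, and *Cxcl13*, which attracts B cells, had 209 FPKM in P1 against 304 in P2, with P3 at 2089.6, P4 at 825, P5 at 3464 and P6 at 47.4. For these chemokines P1 was the lowest of the CD105+ fractions, by less than 2-fold against P2. *Tslp*, an epithelial and stromal cytokine, was higher, at 5.43 FPKM in P1 and 2.3 in P2 (2.35-fold, 95% interval 1.9 to 2.93). *Clu*, a regulator of complement, had 15.6 FPKM in P1 and 51.7 in P2 and was lower, and the abundant *C4b* and *Serping1* were under 2-fold.

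MHC class II genes were lower by close to 2-fold, with a median log2 ratio of −1.03 over 6 genes. As deposited, 4 of them were called lower, beside 3.67% of all genes, and these became 1 with quantile normalization. *Cd74*, the invariant chain, had 21 FPKM in P1 against 44.8 in P2, with P3 at 47.2, P4 at 157, P5 at 119 and P6 at 145, and *H2-Ab1* had 6.21 FPKM in P1 against 12.4 in P2, with P3 at 23.3, P4 at 62.6, P5 at 63.3 and P6 at 57. *H2-Aa* and *H2-DMb2* were the other members called. Myeloid markers stood at low levels with the same direction, with *Lyz2* at 14.4 FPKM in P1 and 22 in P2 and *Csf1r* at 0.763 FPKM in P1 and 1.49 in P2, and their part in the class II values was not tested.

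Of the 86 higher genes, 43 were among those that led in P1 over every other library (at least 5 FPKM, at least 2 times P2 and at least 1.5 times each other library), and 43 were not. In the latter group, 29 were nevertheless highest in P1 of the 6 libraries, and 33 were under 5 FPKM in P1. *Procr*, the endothelial protein C receptor, had 33.2 FPKM in P1 against 15.2 in P2, with P3 at 22.8, P4 at 29.4, P5 at 28.5 and P6 at 39.3, and was 2.19-fold (95% interval 2.04 to 2.34) higher in P1 than in P2. *Tmeff2*, a transmembrane protein with an EGF-like domain, had 59.5 FPKM in P1 against 27.7 in P2, with P3 at 28.8, P4 at 46.7, P5 at 36.7 and P6 at 28.7, and was 2.15-fold (95% interval 2.07 to 2.22) higher. *Agap1*, a regulator of ARF GTPases, had 28.4 FPKM in P1 against 13.3 in P2, with P3 at 11, P4 at 25.9, P5 at 16.3 and P6 at 45, and was 2.14-fold (95% interval 2.08 to 2.2) higher. P2 and P3 were the lowest of the CD140a+ libraries for *Agap1*, and P6 exceeded P1 for *Procr* and *Agap1*. *Sfrp2* was 2.23-fold (95% interval 2.07 to 2.39) higher than in P2, with P6 as the highest library at 32.8 FPKM.

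At lower levels, *Agtr2*, an angiotensin II receptor, had 1.72 FPKM in P1 against 0.503 in P2, with P3 at 0.481, P4 at 0.664, P5 at 0.176 and P6 at 0, and was 3.43-fold (95% interval 2.72 to 4.39) higher in P1. *Htr1d*, a serotonin receptor, had 2.78 FPKM in P1 against 0.568 in P2, with P3 at 0.687, P4 at 0.939, P5 at 0.108 and P6 at 0 (4.9-fold higher, 95% interval 3.81 to 6.34). *Kng2*, a kininogen, had 4.13 FPKM in P1 against 1.18 in P2, with P3 at 1.11, P4 at 0.671, P5 at 0.0803 and P6 at 0.278 (3.5-fold higher, 95% interval 2.79 to 4.43). These genes shared a decline from P1 through P4 to P5. *Hcn4*, a pacemaker cation channel, had 4.25 FPKM in P1 and 1.68 in P2, and *Sphkap*, an anchor of protein kinase A, had 3.15 FPKM in P1 and 1.28 in P2. *Lmo1*, a LIM-domain transcription cofactor, had 6.97 FPKM in P1 and 2.57 in P2 and *Snhg11*, a small nucleolar RNA host gene, had 2.44 FPKM in P1 and 0.708 in P2. *Smim5* had 3.45 FPKM in P1 and 1.29 in P2 and *Snhg9*, another host gene, had 2.58 FPKM in P1 and 0.743 in P2.

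Some higher genes have near-identical copies among which reads can be split, and their ratios are uncertain. *Hba-a2* had 9.92 FPKM in P1 and 0.00752 in P2 while its copy *Hba-a1* had 35.2 FPKM in P1 and 43.8 in P2. *Hbb-b1* was at 4.04 FPKM in P1 and near 0 in P2 while *Hbb-b2* had 10.4 FPKM in P1 and 15.4 in P2. Summed over the erythroid list, hemoglobin transcripts were alike, at 60.0 FPKM in P1 and 59.5 in P2. *Ccl21b*, *Eif3j2* and *Tmem254c* also have close copies. Of the genes with the largest ratios that led in P1, *Mir5117* and *Snora24* are small RNAs with 14.1 and 12.9 FPKM in P1, respectively, and values near 0 in P2.

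Lists with higher members in P1 included markers of adventitial progenitor fibroblasts, of which 4 of 17 were higher, beside 0.814% of all genes. The median log2 ratio was 0.86, against −0.048 over all genes compared. *Anxa3*, a calcium-dependent membrane-binding protein, had 220.3 FPKM in P1 against 80.1 in P2, with P3 at 53.9, P4 at 107, P5 at 30.7 and P6 at 80.5 (2.75-fold higher, 95% interval 2.67 to 2.83). *Thy1*, which encodes CD90, had 61.2 FPKM in P1 against 26.1 in P2, with P3 at 16.2, P4 at 38.5, P5 at 9.76 and P6 at 15.1 (2.34-fold higher, 95% interval 2.09 to 2.65), and *Efhd1* had 17.7 FPKM in P1 against 7.99 in P2, with P3 at 3.93, P4 at 8.59, P5 at 2.09 and P6 at 0.253 (2.21-fold higher, 95% interval 2.03 to 2.41). *Ly6a*, with 1417 FPKM in P1 and 994 in P2, and *Clec3b*, with 2387 FPKM in P1 and 1645 in P2, were abundant and under 2-fold. In the CD105- fractions P4 exceeded P5 for each of these genes.

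Inflammatory chemokines and cytokines were above 0 on the log2 scale in 15 of 16 genes, with a median of 0.60, against −0.048 over all genes compared. Apart from *Ptx3*, *Ccl11*, the eosinophil chemokine, passed 2-fold with 688 FPKM in P1 against 337 in P2, with P3 at 368, P4 at 341, P5 at 97.4 and P6 at 4.5, although it was just under it after scaling to a common sum and after quantile normalization. *Lif* had 12.7 FPKM in P1 and 6.8 in P2 and *Tnfaip6*, which modifies hyaluronan matrix, had 233 FPKM in P1 and 135 in P2. In the list of angiotensin, endothelin and adrenomedullin genes, 5 of 18 were higher under each scaling, beside 0.814% of all genes as deposited. *Edn1*, endothelin-1, had 11.2 FPKM in P1 and 3.5 in P2, and *Adm*, adrenomedullin, had 259 FPKM in P1 and 105 in P2. *Ace*, angiotensin-converting enzyme, had 345 FPKM in P1 and 140.0 in P2 and its downstream receptor *Agtr1a* had 14.2 FPKM in P1 and 6.28 in P2. *Ramp1*, which converts the calcitonin receptor-like receptor into a receptor for CGRP, went the other way with 0.862 FPKM in P1 against 3.72 in P2, with P3 at 2.6, P4 at 0.392, P5 at 0.682 and P6 at 0.291, and was 4.31-fold (95% interval 2.89 to 6.59) lower in P1.

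*Grb14*, an adaptor of the insulin receptor, had 8.86 FPKM in P1 against 2.23 in P2, with P3 at 3.33, P4 at 3.66, P5 at 0.78 and P6 at 1.9 (3.97-fold higher in P1, 95% interval 3.44 to 4.6). *Adam23*, a disintegrin without protease activity, had 22.8 FPKM in P1 against 7.17 in P2, with P3 at 8.09, P4 at 11.3, P5 at 2.19 and P6 at 6.05 (3.18-fold higher, 95% interval 3.04 to 3.32). *Akr1b3*, aldose reductase, had 18.6 FPKM in P1 against 4.28 in P2, with P3 at 4.16, P4 at 7.69, P5 at 10.5 and P6 at 6.19 (4.34-fold higher, 95% interval 3.83 to 4.94). P4 exceeded P5 for *Grb14* and *Adam23*, and P5 exceeded P4 for *Akr1b3*.

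P4 and P5, which share no library with P1 and P2, allowed the same genes to be read across another step of ALDH activity, from low to intermediate, in CD105- cells. Of the 86 genes higher in P1, 63 (73.3%) were at least 2-fold higher in P4 than in P5 and 3 (*Hbb-b1*, *Snhg9* and *Tmem254c*) were lower, against 4.03% and 0.902% of all 11528 genes with values. Their median log2 ratio of P4 to P5 was 1.83. Of the 43 that did not meet the rule for leading in P1, 27 were higher in P4. Of the lower genes, 389 had values, and 67 of these (17.2%) were at least 2-fold lower in P4 than in P5 and 6 were higher, with a median log2 ratio of −0.48. Acinar and small RNA genes were left out of both counts, because the acinar sum also differed between P4 and P5. The ratio for *Aldh1a2* itself was 285 FPKM in P4 to 145 in P5, and for *Phex* it was 5.71 to 0.680.

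**Figure D5:**
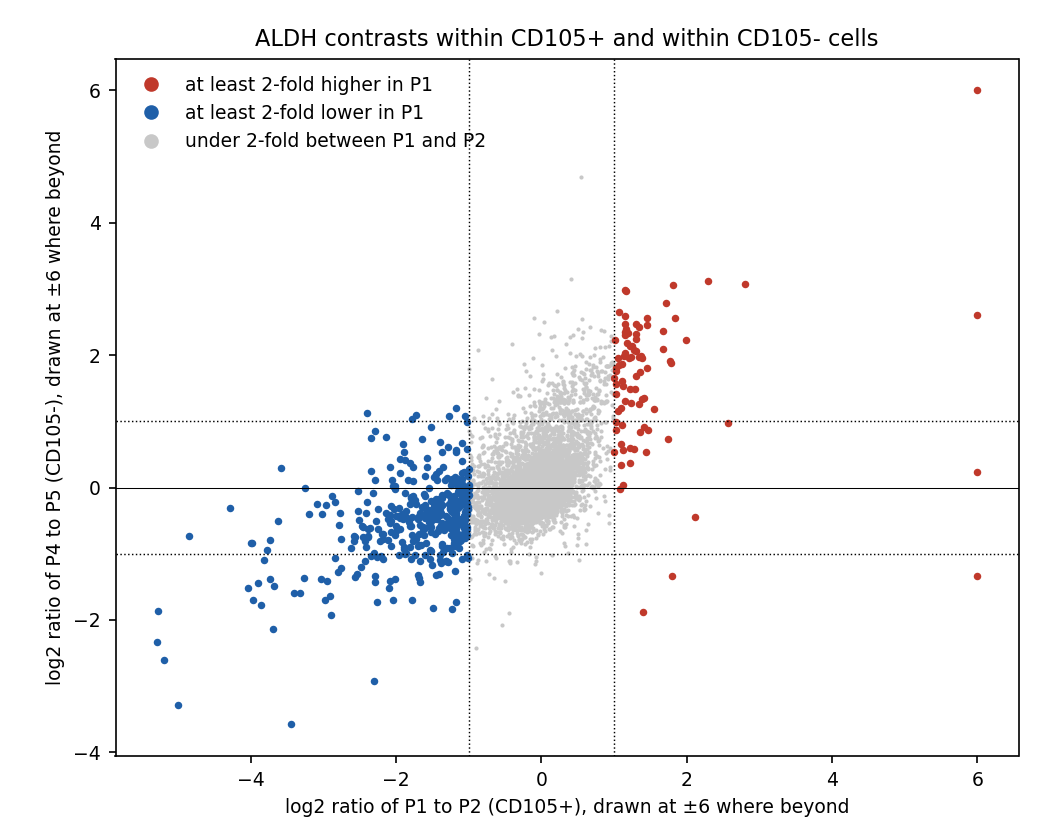
log2 ratio of P1 to P2 in CD105+ fractions (x axis) and of P4 to P5 in CD105- fractions (y axis), for each gene without the acinar list and small RNAs. Values beyond 6 are drawn at 6, and dotted lines mark 2-fold. Of 86 genes higher in P1 (red), 63 lie above the upper dotted line, and of 389 genes lower in P1 (blue), 67 lie below the lower one.

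Several lists with abundant members had few or no genes called between P1 and P2. Beside 0.814% higher and 3.67% lower among all genes, these counts are not read as results about the lists. The median log2 ratio was −0.021 for immediate-early genes, −0.080 for glycolysis, 0.12 for cholesterol synthesis and −0.036 for housekeeping genes. No member was called among 36 immediate-early genes, which report the response of cells to enzymatic digestion, with *Fos* at 1810.5 FPKM in P1 and 2102 in P2. None was called among 20 genes of glycolysis, 22 of cholesterol synthesis, 14 housekeeping genes or 10 of the hedgehog pathway. In the hedgehog list, however, *Ptch1* with 2.13 FPKM in P1 and 3.46 in P2, *Gas1* with 282 FPKM in P1 and 395 in P2 and *Boc* with 52.6 FPKM in P1 and 73 in P2 shared a direction, and the median log2 ratio was −0.42. Of 81 ribosomal protein genes, 1 was called, *Rpl26*, and such genes have many processed copies in the genome. Of 8 FRC markers, *Des* was called, and *Dpt*, with 1634 FPKM in P1 and 1389 in P2, *Col14a1*, with 334 FPKM in P1 and 266 in P2, and *Vcam1*, with 54.5 FPKM in P1 and 73.3 in P2, were not.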

How the data were processed

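RNA from sorted omental stroma of WT C57BL/6 mice was sequenced as single-end 76 nt reads, 1 library per population. The authors deposited FPKM values per gene, and the submitters' processing notes name TopHat2 2.0.7, Cufflinks 2.1.1 and the mm10 build. The annotation, filters and any pooling were not given in the sources used here. The CD105, CD140a and ALDH gates of P1 to P6 were read from the study's gating plot, and its text states that of P1.

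Rows that repeated a symbol were summed (495 rows), leaving 23352 symbols. A gene was compared when P1 and P2 were both above 0 and their mean was at least 1 FPKM. Ratios were taken on FPKM with no pseudocount and called at 2-fold. Depth was estimated from the steps of low FPKM values with 200 nt taken off each transcript length. It was chosen to bring these same values closest to whole reads. At that depth, 53.2% to 59.4% of values were whole reads within 0.05. The 10% due by chance holds for a depth not chosen this way, so it is not a like reference. With full lengths the depth came to 34200000 to 56200000 reads. Intervals are Clopper-Pearson (95%), were not given under 300 nt or for unknown lengths, and cover counting error only. FPKM close to 0 can be a failed estimate. Some list members are not reported here.

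The rule for named genes took the 30 largest decreases and the 20 largest increases outside P1-leading genes by log2 ratio after adding 1 FPKM, the 10 largest among P1-leading genes, the gate and marker genes, and in each of 53 gene lists the 4 members with the largest ratio and the most abundant one. Small RNAs, unnamed transcripts and acinar genes were left to counts. Other genes named singly, as members of small counts or as examples in lists, were chosen after their values were seen. The members and lists were chosen with earlier results of these data known. Alternatives covered the minimum, fold, pseudocount, scaling (common sum, median of ratios, *Gapdh*, quantile), repeated symbols, genes at 0, small RNAs and acinar genes. Leaving out genes under 0.001 FPKM and leaving out all lists of other cell types were added after seeing the data. Scripts were tested on simulated data. Promoters came from RefSeq. Calculations used Python 3.11.15 with pandas 2.3.3, scipy 1.17.1 and numpy 2.4.6, and plots used matplotlib 3.10.9.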

Additional observations from a re-analysis of the deposited data

How the results depend on the processing

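Genes lower in P1 outnumbered those higher in P1 under every alternative tried. With no minimum FPKM, 492 genes were higher and 1646 lower. With a minimum of 5 FPKM, 54 were higher and 188 lower. A threshold of 1.5-fold gave 330 higher and 837 lower, and one of 3-fold gave 22 and 210. Adding 1 FPKM before the ratio left 57 higher and 286 lower, since it shrinks the ratios of low genes. The other alternatives gave 84 to 134 higher and 337 to 549 lower genes. The median log2 ratio over all genes was −0.082 with a common sum, 0.036 with the median of ratios, −0.024 after division by *Gapdh* and 0.032 with quantile normalization. Of 135 named genes past 2-fold, 112 stayed past it under each alternative tried for single genes. Adding 1 FPKM took 21 below it and quantile normalization 11, among them *Stc2*, *Sema3f* and the class II genes *H2-Aa* and *H2-Ab1*. The erythroid median of 5.03 turned to −0.44 with a minimum of 5 FPKM and to −0.31 when genes under 0.001 FPKM were left out, because *Hbb-b1* and *Hba-a2* had values near 0 in P2. No paired analysis was possible because no population had more than 1 library. Without replicates, the spread between mice and between sorts is unknown, and depth limits ratios of genes near 1 FPKM.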

Other observations

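Some gene groups outside the comparisons above are given as values, beside 0.814% of all genes that were higher in P1 and 3.67% that were lower. Counts of 1 or none in a list are near these shares and are not read as results about the list. Of 11 genes of mineralization compared, 2 were higher in P1, *Phex* and *Smpd3*, and 3 were lower, *Enpp2*, *Mgp* and *Fgf23*. *Smpd3*, a neutral sphingomyelinase, had 217 FPKM in P1 and 81.5 in P2. Of 21 preadipocyte and adipogenic factors, 3 were lower, *Bmp4*, *Wisp2* and *Mgp*, and none was higher. Of 36 matrix proteases and their inhibitors, *Adamtsl3* was higher, with 11.5 FPKM in P1 and 4.75 in P2, and *Adamts9*, a protease of the proteoglycan versican, was lower, with 1.48 FPKM in P1 and 6.19 in P2. *Notch1* was the lower member among 11 genes of the Notch pathway, with 3.80 FPKM in P1 and 7.71 in P2, and was under 2-fold after 3 of the 4 scalings. None of 18 genes of MHC class I presentation or of 16 *Hox* genes was called in either direction as deposited.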
